A study of Homo sapiens with 7 samples.

Results

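The genes described here encode 10 antioxidant enzymes and their partners, SOD1, SOD2, CAT, GPX1, GPX4, TXN, TXNRD1, NQO1, HMOX1 and GCLM. They were chosen by name, and all 10 were found among the 57189 genes of the count table. The samples are RH30 cells, an established line of alveolar rhabdomyosarcoma (RMS), a childhood tumor with features of immature skeletal muscle. The 4 control samples were left untreated, and 3 samples received BV6 at 5 µM for 24 h. BV6 is a Smac mimetic, a small molecule that imitates the mitochondrial protein Smac and so antagonizes the inhibitor of apoptosis proteins (IAPs). The genotype of both groups is labelled wt, and the methods of the study state that RH30 cells carrying GFP and luciferase were used throughout. The sample labels do not state whether RNA came from monolayers or spheroids, while a supplementary panel that sets qRT-PCR beside the RNA-seq values is headed 2D. BV6 replicates 2, 3 and 4 carry the same title label as untreated replicates 2, 3 and 4, and untreated replicate 1 has no BV6 partner. A legend of the study speaks of biological replicates for its RNA-seq, but nothing states whether these were separate cultures, so p-values measure the spread between these samples, which may be technical.

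Superoxide, a by-product of respiration, is turned into hydrogen peroxide by superoxide dismutases, and peroxide is then reduced by catalase, glutathione peroxidases and peroxiredoxins. Glutathione and thioredoxin supply the electrons, and NADPH-dependent reductases recharge them. Many of these genes are targets of NRF2, a transcription factor held down by KEAP1 and active under oxidative stress, while SOD2 is also a well-known target of NF-κB, the pathway that Smac mimetics switch on by removing cIAP1 and cIAP2.

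The sum of the deposited counts was 77220882, 56684781, 59849682 and 62049652 for untreated replicates 1 to 4. For BV6 replicates 2 to 4 it was 57464589, 59465798 and 54070030. These sums are well above the numbers of reads per library that the study gives, so they are not the sequencing depth, and whether both mates of a read pair were counted is not stated. Levels are given as CPM, counts scaled to the TMM-normalized library size. All 10 genes passed the filter on low counts, with between 508 counts (NQO1) and 12831 counts (SOD1) in a sample. The smallest number of counts taken as detected, 3, corresponds to 0.0389 to 0.0557 CPM and covers counting error only.

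The myogenic identity of the cells was checked with 16 marker genes. DES, the gene of the muscle filament desmin, was the most abundant by its mean, at 451 to 865 CPM, and MYOD1 (157 to 474 CPM) and MYOG (78.8 to 226 CPM) were detected in every sample. The summed level of this list was 3440, 2470, 2740 and 2860 CPM in untreated replicates 1 to 4 and 1910, 1690 and 2770 CPM in BV6 replicates 2 to 4. MYF6, PAX7 and TFAP2B stayed below 1 CPM in every sample. Macrophages are rich in HMOX1, and of 7 macrophage markers 5 stayed below 1 CPM in every sample, including CD14 and CD163. The summed macrophage list was 13.7, 23.2, 12.1 and 17.5 CPM in untreated and 23.8, 13.9 and 22.5 CPM in BV6 samples, most of it from CSF1R (8.3 to 18.1 CPM). Of 11 leukocyte and NK cell markers, 10 stayed below 1 CPM, and NKG7 had 5.29 to 11.1 CPM. All 6 epithelial markers were below 1 CPM, while PECAM1 (25.0 to 68.2 CPM) and THY1 (71.7 to 99.7 CPM) were the most abundant of the endothelial and fibroblast lists.

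With BV6, 0 of the 10 antioxidant genes reached an adjusted p below 0.05 (edgeR quasi-likelihood, Benjamini-Hochberg over 23124 tested genes). These are bulk samples, so fewer cells of a type and less RNA per cell cannot be told apart. Across all tested genes, 104 passed (0.45%), 91 of them higher with BV6 (0.394%). At an unadjusted p below 0.05, 1 of the 10 genes passed in edgeR (TXNRD1), where 8.39% of all tested genes did. The DESeq2 Wald test also called 0 of the 10 after adjustment (1.76% of all tested genes) and had 0 at an unadjusted p below 0.05 (8.82%). For limma-voom these numbers were 0 (0.471%) and 1 (8.93%). When edgeR also held the replicate as a block, it called 218 genes (0.943%) and 0 of the 10. The median log2 fold change was 0.07 over the 10 genes and -0.01 over all tested genes, with 7 positive and 3 negative values. In SOD2, CAT and TXNRD1 every BV6 sample lay above every untreated sample, a pattern that 4.94% of the tested genes showed.

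**Figure D1:**
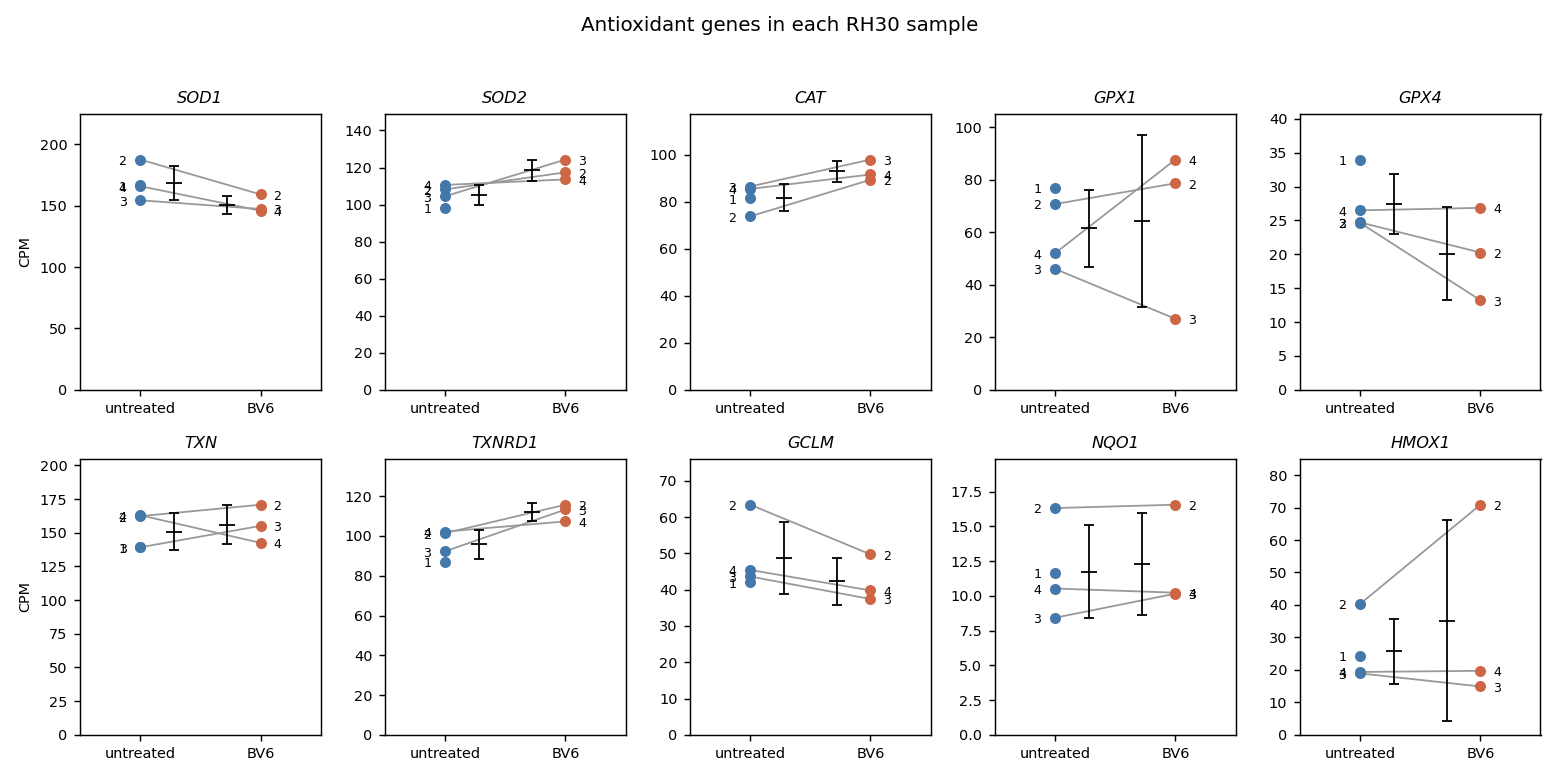
Level of each antioxidant gene (CPM, axis from 0) in untreated (blue) and BV6-treated (orange) RH30 samples. Small digits are replicate numbers, gray lines join samples with the same label, and black marks show mean ± SD (n = 4 and n = 3). SOD2, CAT and TXNRD1 are the panels without overlap between the groups, and replicate 2 is the highest sample of both groups for HMOX1.

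SOD2 is the manganese superoxide dismutase of the mitochondrial matrix (GRCh38 chromosome 6, 159669069 to 159762529). It measured 98.3, 108, 105 and 111 CPM in untreated replicates 1 to 4 and 117, 124 and 114 CPM in BV6 replicates 2 to 4. The groups did not overlap, but the lowest BV6 sample stood close to the highest untreated one. The means were 105 ± 5.39 CPM (SD, n = 4) and 118 ± 5.43 CPM (SD, n = 3), a 1.12-fold difference. The log2 fold change was 0.17 (95% interval -0.04 to 0.38, standard error 0.0938), with an adjusted p of 0.692 (edgeR, Benjamini-Hochberg). The interval reaches from 0.971-fold to 1.30-fold. Within the labelled pairs, the log2 ratios were 0.12, 0.25 and 0.04 for replicates 2, 3 and 4, all positive and unequal.

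SOD1, the copper-zinc enzyme of the cytosol (chromosome 21, 31659666 to 31668931), had 167, 188, 154 and 166 CPM in untreated and 159, 147 and 146 CPM in BV6 samples. The ranges overlapped, because BV6 replicate 2 lay above the lowest untreated sample, but each BV6 sample was below its labelled partner, with log2 ratios of -0.24, -0.07 and -0.19. Its log2 fold change was -0.16 (95% interval -0.39 to 0.06, adjusted p = 0.726, edgeR with Benjamini-Hochberg adjustment). The mitochondrial and the cytosolic dismutase thus had estimates of opposite sign, neither called, and their difference was not tested.

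CAT, the peroxisomal catalase that splits hydrogen peroxide (chromosome 11, 34438934 to 34472060), had 81.5, 73.8, 86.6 and 85.5 CPM in untreated replicates and 89.4, 98.0 and 91.7 CPM with BV6. All BV6 samples were above all untreated samples, and the within-pair log2 ratios of replicates 2, 3 and 4 were 0.28, 0.18 and 0.10. The log2 fold change of 0.18 had a 95% interval from -0.04 to 0.41 and an adjusted p of 0.679 (edgeR, Benjamini-Hochberg).

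GPX1 and GPX4 are selenoproteins that reduce peroxides with glutathione, GPX1 acting on soluble peroxides and GPX4 on lipid peroxides in membranes, which makes GPX4 the central enzyme against ferroptosis. GPX1 (chromosome 3, 49357174 to 49358605) had 77.02, 70.8, 46.0 and 52.1 CPM in untreated samples and 78.7, 27.0 and 87.8 CPM with BV6. The BV6 samples held both the lowest and the highest value of the series. Its log2 fold change was 0.07, and the 95% interval of -0.72 to 0.85 covers changes of both signs (adjusted p = 0.969, edgeR with Benjamini-Hochberg adjustment). Its leave-one-out estimates lay between -0.23 and 0.44. GPX4 (chromosome 19, 1103982 to 1106791) had 34.0, 24.7, 24.6 and 26.5 CPM in untreated samples and 20.3, 13.2 and 26.9 CPM with BV6. BV6 replicate 4 lay inside the untreated range and BV6 replicates 2 and 3 under it. The log2 fold change was -0.45 (95% interval -0.96 to 0.06, adjusted p = 0.647, edgeR with Benjamini-Hochberg adjustment). It was -0.22 without BV6 replicate 3 and -0.72 without BV6 replicate 4, not called in either.

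The libraries differed in how levels depended on the base composition of genes. Among the 1756 genes with a GC content of at least 60 percent, the median deviation from a gene's mean over the 7 samples was -0.76 (log2) in BV6 replicate 3 and 0.52 in untreated replicate 1. GPX1 has 64.1 percent GC in its longest annotated transcript and GPX4 62.5 percent, the 2 highest values of the 10 genes. BV6 replicate 3 was the lowest sample for both, and untreated replicate 1 was the highest for GPX4. For GPX1 the highest was BV6 replicate 4, where the median deviation was only 0.16. SOD2 has 41.5 percent GC. Genes with 40 to 45 percent GC had a median deviation of 0.14 in BV6 replicate 3, the sample with the highest SOD2 level, and of -0.13 in untreated replicate 1, the sample with the lowest. Beyond a correction for each library's GC trend, added once the data were known, the part of base composition in these results was not tested. The correction gave log2 fold changes of 0.32 for GPX1, -0.19 for GPX4 and 0.10 for SOD2 (edgeR, Benjamini-Hochberg adjusted p 0.505, 0.579 and 0.664).

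**Figure D2:**
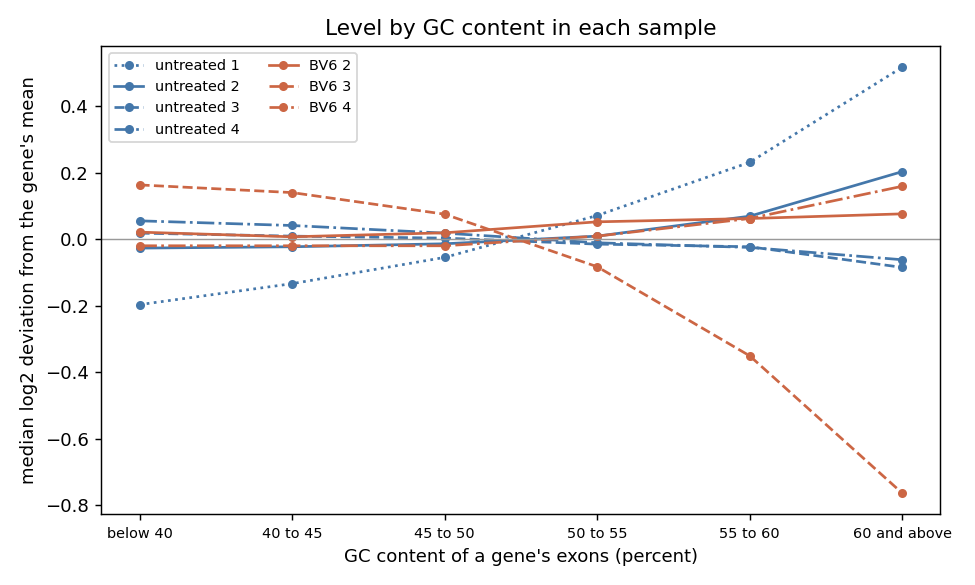
Median log2 deviation of genes from their mean over the 7 samples, for each untreated (blue) and BV6 (orange) sample. Genes are grouped by the GC content (percent) of their longest annotated transcript, which the axis labels as exons. In genes with at least 60 percent GC, BV6 replicate 3 falls to -0.76 and untreated replicate 1 reaches 0.52, while the other 5 samples lie between -0.09 and 0.20.

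TXN encodes thioredoxin, a small protein that reduces disulfides, and TXNRD1 the cytosolic selenoenzyme that recharges it with electrons from NADPH. TXN (chromosome 9, 110243810 to 110256507) had 139, 162, 139 and 163 CPM in untreated and 171, 155 and 143 CPM in BV6 samples. The ranges overlapped, and the log2 fold change was 0.05 (95% interval -0.20 to 0.30, adjusted p = 0.926, edgeR with Benjamini-Hochberg adjustment). TXNRD1 (chromosome 12, 104215779 to 104350307) had 86.9, 101, 92.3 and 102 CPM in untreated and 116, 113 and 107 CPM in BV6 samples. The groups did not overlap, and all within-pair log2 ratios were positive, 0.19, 0.30 and 0.07 for replicates 2, 3 and 4. The estimate for TXNRD1 was a log2 fold change of 0.23 (95% interval from just above 0 to 0.45, standard error 0.0999), an unadjusted p of 0.0464 and an adjusted p of 0.589 (edgeR, Benjamini-Hochberg). This is a 1.17-fold difference with an upper limit of 1.37-fold.

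GCLM, NQO1 and HMOX1 are classical NRF2 targets. GCLM, the modifier subunit of the enzyme that starts glutathione synthesis (chromosome 1, 93885199 to 93909456), had 42.0, 63.4, 43.6 and 45.4 CPM in untreated and 49.7, 37.4 and 39.8 CPM in BV6 samples. Replicate 2 was the highest sample of both groups, and in each labelled pair the BV6 sample was the lower one, with log2 ratios of -0.35, -0.22 and -0.19. The log2 fold change was -0.20 (95% interval -0.58 to 0.18) and, with the replicate block, -0.25 (95% interval -0.47 to -0.04), with adjusted p of 0.787 and, blocked, 0.36 (edgeR, Benjamini-Hochberg). Without untreated replicate 2 and without the block it was -0.05. In 1 of the 16 alternatives GCLM was called. With the GC correction and the replicate block together, a choice made with the data already seen, its log2 fold change was -0.29 with an adjusted p of 0.0499 (edgeR, Benjamini-Hochberg), in a fit that called 1027 of 13767 genes (7.46%). Its adjusted p in the other alternatives lay between 0.360 and 0.999.

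NQO1 is a flavoenzyme that reduces quinones (chromosome 16, 69706996 to 69726668). It had 11.7, 16.3, 8.43 and 10.5 CPM in untreated and 16.6, 10.2 and 10.2 CPM in BV6 samples. Replicate 2 was again the highest of both groups, and the log2 fold change was 0.07 (95% interval -0.50 to 0.64, adjusted p = 0.957, edgeR with Benjamini-Hochberg adjustment). It turned to -0.19 without BV6 replicate 2 and to -0.06 without untreated replicate 3. HMOX1 encodes heme oxygenase-1, which breaks heme down to biliverdin, carbon monoxide and iron (chromosome 22, 35380361 to 35394214). It had 24.3, 40.3, 18.9 and 19.4 CPM in untreated and 70.9, 14.9 and 19.7 CPM in BV6 samples. BV6 replicate 2 alone stood above the untreated range, and BV6 replicate 3 was the lowest of all 7 samples. The log2 fold change of 0.45 had the widest interval of the 10 genes, -0.66 to 1.56 (adjusted p = 0.831, edgeR with Benjamini-Hochberg adjustment). Without BV6 replicate 2 the sign turned, to -0.56 (adjusted p = 0.655, edgeR with Benjamini-Hochberg adjustment), so the estimate rests on that sample. It was 0.17 with the replicate block and 0.17 with limma-voom, neither called.

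**Figure D3:**
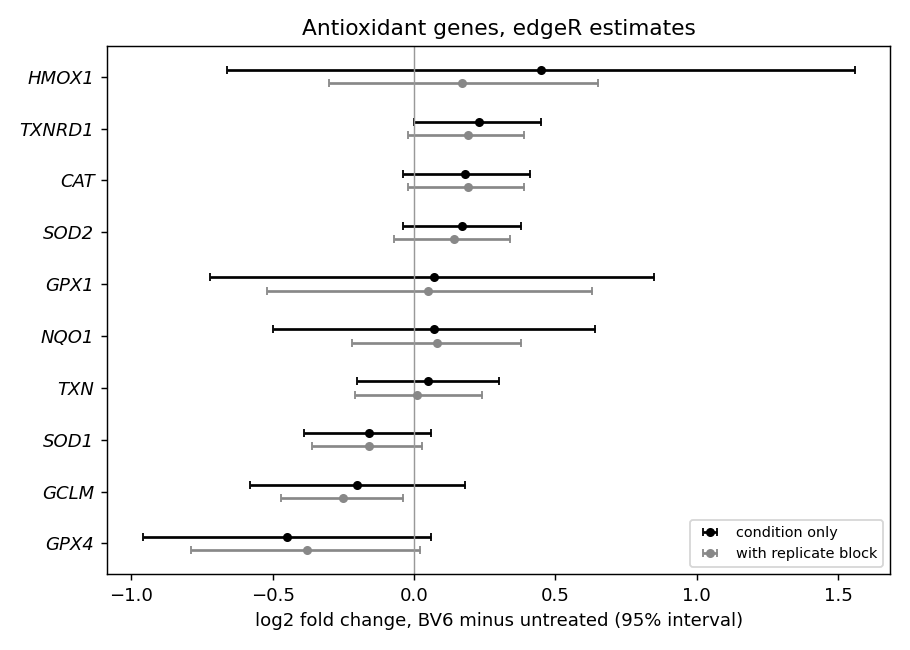
Log2 fold change of the 10 antioxidant genes with BV6 relative to untreated cells, from edgeR without (black) and with (gray) the replicate block. Points are estimates and bars 95% intervals, which span 0 in the fit without the block except for TXNRD1, whose lower limit lies just above 0. Intervals are narrowest for genes such as SOD2 (-0.04 to 0.38) and widest for HMOX1 (-0.66 to 1.56).

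The spread among untreated samples differed between the genes. The coefficient of variation over the 4 untreated samples was 5.11% for SOD2, 7.06% for CAT, 7.70% for TXNRD1, 8.20% for SOD1 and 8.99% for TXN. It was 16.2% for GPX4, 20.4% for GCLM, 24.0% for GPX1, 28.4% for NQO1 and 39.0% for HMOX1. The 95% interval of the fold change accordingly ran from 0.971 to 1.30 for SOD2 and from 0.633 to 2.95 for HMOX1.

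Levels were compared between genes per kilobase of the canonical transcript of each gene, in the 4 untreated samples. TXN was highest at 205 ± 18.4 CPM per kb (SD, n = 4), followed by SOD1 at 188 ± 15.4, and the ranges of these 2 genes overlapped. GPX1 came next at 68.4 ± 16.4 CPM per kb, then CAT at 35.7 ± 2.52 and GPX4 at 32.3 ± 5.21, again with overlapping ranges. TXNRD1 (24.8 ± 1.91 CPM per kb), HMOX1 (16.6 ± 6.45) and GCLM (9.96 ± 2.04) each overlapped with the neighbor in that order. SOD2 stood at 7.44 ± 0.38 and NQO1 at 4.66 ± 1.32 CPM per kb. The order partly depends on the gene model. Per kilobase of all annotated exons, which is closer to the union model used for counting, TXN had 149 ± 13.4 and SOD1 85.4 ± 7.0 CPM per kb, and their ranges no longer overlapped. CAT (22.9 ± 1.61) and GPX4 (14.9 ± 2.41) were then apart as well, and GPX4 overlapped with TXNRD1 (14.3 ± 1.10). SOD2 had 5.81 ± 0.297 CPM per kb over its 18144 exonic bases, where its canonical transcript has 14167. Both lengths come from a newer annotation than the one used for counting, in which the SOD2 model may differ, so its level per length and its place in this order are uncertain.

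Some reads of these genes can be shared with other genes. The exons of SOD2 share 939 bases with the long non-coding RNA SOD2-OT1 on the same strand, 437 bases with WTAP and 133 bases with ACAT2 on the opposite strand. These 3 neighbors had log2 fold changes of 0.04, 0.01 and 0.20 and adjusted p of 0.968, 0.987 and 0.719 (edgeR, Benjamini-Hochberg). For ACAT2 the leave-one-out estimates lay between 0.11 (without BV6 replicate 2) and 0.31 (without BV6 replicate 4). SOD2-OT1 was low, at 4.40 ± 0.808 CPM (SD, n = 4) in untreated cells. The libraries were stranded, but the handling of strand in counting is not given in the sources used here. GPX1 shares 572 bases, or 39.9 percent of its exons, with a protein-coding gene on the same strand, and NQO1 shares 575 bases (19.4 percent) with a long non-coding RNA on the opposite strand, neither listed in the count table. How reads in these stretches were assigned is not known. The pseudogene GPX1P1 held 2083 counts over the 7 samples, while SOD1P1 and SOD2P1 held 1 and 2 counts.

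The genes with the profile most like that of SOD2 over the 7 samples, among 17058 genes compared, were PPP2R3C (Pearson r = 0.99), SYCP3 (r = 0.989), EXOC6B (r = 0.989), RLIM (r = 0.988) and PRRC1 (r = 0.984) on log2 CPM. In all 5 the lowest sample was untreated replicate 1 and the highest BV6 replicate 3, as for SOD2, which their choice by likeness largely fixes. Their GC content lay between 37.3 and 44.8 percent, in the range where untreated replicate 1 and BV6 replicate 3 deviated in the opposite direction to GC-rich genes. None of the 5 was called, the likeness is a description over 7 samples, and the part of GC content in it was not tested.

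Of 36 other antioxidant enzymes, 34 were tested, with 1 called higher with BV6 (0.394% of all tested genes) and 0 lower. Their median log2 fold change was -0.02. The called gene was PRDX1, a peroxiredoxin that reduces hydrogen peroxide with electrons from thioredoxin (chromosome 1, 45510914 to 45542732). PRDX1 had 314, 387, 307 and 371 CPM in untreated and 656, 624 and 608 CPM in BV6 samples. The groups were far apart, with the lowest BV6 sample well above the highest untreated one. PRDX1 rose 1.83-fold, a log2 difference of 0.87 (95% interval 0.62 to 1.12; standard error 0.111), with an adjusted p of 0.0116 (edgeR, Benjamini-Hochberg). Its within-pair log2 ratios were 0.76, 1.03 and 0.71. Of the 7 leave-one-out fits, 6 called it and 1 did not, with an adjusted p of 0.053 (edgeR, Benjamini-Hochberg) without untreated replicate 3. TXN and TXNRD1, which supply its electrons, were not called.

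TXN2, the mitochondrial thioredoxin, had 60.2, 60.3, 59.9 and 63.4 CPM in untreated and 50.6, 44.2 and 52.5 CPM in BV6 samples, without overlap. Its log2 fold change was -0.31 (adjusted p = 0.396), and those of GLRX5, a glutaredoxin of iron-sulfur cluster assembly, and of SESN2, a stress-induced sestrin, were -0.26 (adjusted p = 0.444) and 0.57 (adjusted p = 0.499; edgeR, Benjamini-Hochberg for all). Without the GC correction, the leave-one-out estimates for SESN2 lay between 0.37 (without BV6 replicate 2) and 0.73. These 3 genes passed, at adjusted p of 0.0486, 0.0227 and 0.0242 (edgeR, Benjamini-Hochberg), with the GC correction and the replicate block together, a fit that called 4 genes of this list and 7.46% of all its genes.

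Of a list of 42 NRF2 regulators and targets, 40 were tested and edgeR called 0 (0.45% of all tested genes). At an unadjusted p below 0.05 in edgeR there were 8 (8.39% of all tested genes). The list leaves out the 10 genes and the other antioxidant enzymes above, PRDX1 among them. Its 0 thus does not cover all NRF2 targets. DESeq2 called 4 of the list (1.76% of all tested genes), limma-voom 0 (0.471%), and edgeR with the replicate block 3 (0.943%), all higher with BV6. The median log2 fold change was 0.08. DESeq2 called ABCC4 and the 3 genes called with the block, which were SQSTM1, the autophagy receptor p62 that binds KEAP1, SLC7A11, the cystine importer that feeds glutathione synthesis, and TRIM16L. SQSTM1 had 147, 157, 114 and 112 CPM in untreated and 413, 199 and 223 CPM in BV6 samples. The groups did not overlap, and BV6 replicate 2 was much the highest. For SQSTM1 the log2 fold change was 1.07 without and with the block, and the adjusted p was 0.148 without it and 0.0105 with it (edgeR, Benjamini-Hochberg). Without BV6 replicate 2 the unblocked estimate was 0.68, and none of the 7 leave-one-out fits, all without the block, called the gene. Unblocked edgeR called SQSTM1 without the filter on low counts (adjusted p = 0.00692) and with the GC correction (adjusted p = 0.0318, both Benjamini-Hochberg). SLC7A11 had 5.32, 7.14, 4.90 and 4.40 CPM in untreated and 15.3, 10.3 and 6.91 CPM in BV6 samples. BV6 replicate 4 lay under untreated replicate 2, so the groups overlapped, although each BV6 sample was above its labelled partner. For SLC7A11 the log2 fold change was 0.99 (adjusted p = 0.237), or 0.94 with the block (adjusted p = 0.0374; edgeR, Benjamini-Hochberg). TRIM16L had a log2 fold change of 0.66 (adjusted p = 0.168), or 0.63 with the block (adjusted p = 0.0238; edgeR, Benjamini-Hochberg).

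ABCC4, a drug and anion exporter, had 40.6, 50.8, 45.1 and 48.2 CPM in untreated and 72.6, 69.9 and 62.2 CPM in BV6 samples. Its log2 fold change was 0.56 and its adjusted p was 0.098 without and 0.0688 with the block (edgeR, Benjamini-Hochberg). It passed with DESeq2 (adjusted p = 0.0074, Benjamini-Hochberg), and in edgeR with the GC correction (0.0454) and with that and the block (0.00289). NFE2L2, the gene of NRF2 itself, had 45.5, 45.4, 47.2 and 55.2 CPM in untreated and 57.9, 62.5 and 56.4 CPM with BV6, a log2 fold change of 0.29 (95% interval 0.04 to 0.53; adjusted p = 0.533, edgeR, Benjamini-Hochberg). For its repressors KEAP1 and BACH1 the log2 fold changes were -0.21 and 0.24 (adjusted p 0.83 for KEAP1 and 0.679 for BACH1, edgeR, Benjamini-Hochberg). KEAP1, with 60.8 percent GC, was at 0.0037 without BV6 replicate 3 and at 0.0078 with the GC correction, and BACH1 was at 0.15 without untreated replicate 1. GCLM, NQO1, HMOX1 and TXNRD1, which belong to the same regulon, thus had estimates of either sign beside these genes.

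**Figure D4:**
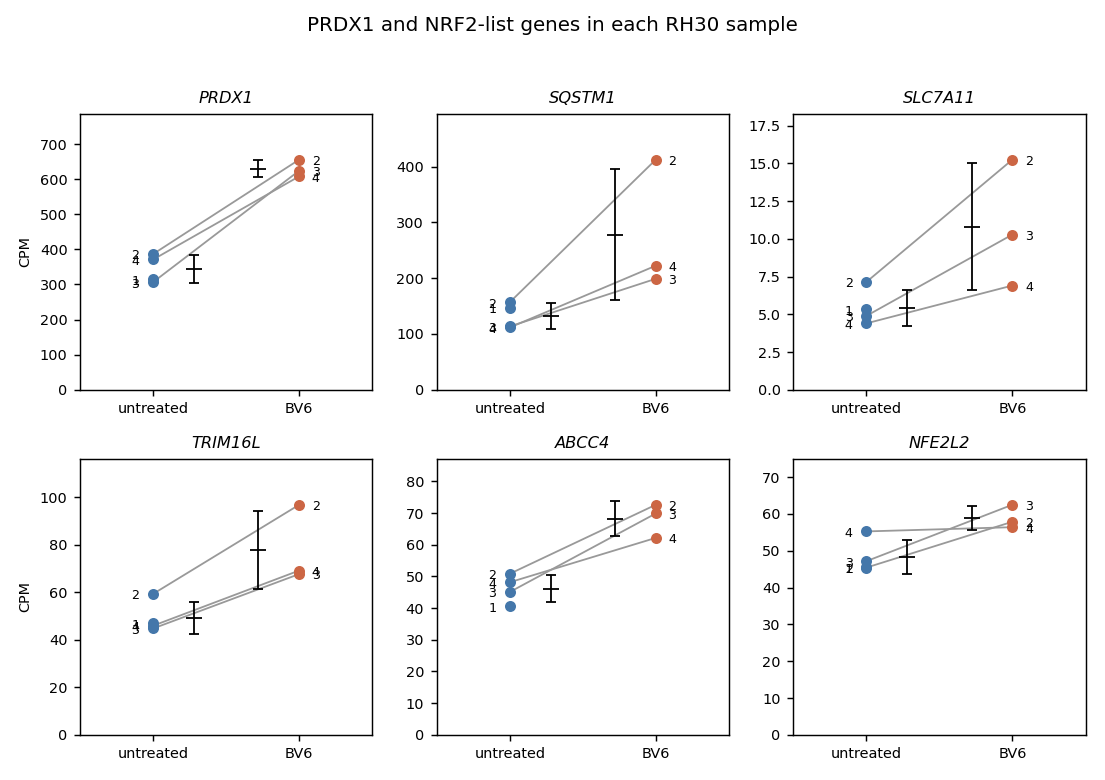
Levels (CPM, axis from 0) of PRDX1 and of 5 genes of the NRF2 list in untreated (blue) and BV6-treated (orange) RH30 samples, with replicate numbers, gray lines between samples of the same label and black marks for mean ± SD (n = 4 and n = 3). PRDX1 lies between 307 and 387 CPM in untreated and between 608 and 656 CPM in BV6 samples, and SLC7A11 is the panel with overlap between the groups.

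Genes that make superoxide or peroxide were mostly low. Of 25 such genes, 15 were tested, and edgeR, DESeq2 and limma-voom each called 0, with 0 at an unadjusted p below 0.05 in all 3. Over all tested genes, 8.39%, 8.82% and 8.93% passed this unadjusted limit in edgeR, DESeq2 and limma-voom. DUOX2, a dual oxidase, had a log2 fold change of 0.84 (95% interval -0.08 to 1.76) at only 0.104 to 0.277 CPM, and those of NOX1 and ALOX12 were 0.55 and -0.25. The leave-one-out estimates of NOX1 lay between 0.32 (without BV6 replicate 2) and 0.86 (without untreated replicate 2). Of 24 genes of iron and metal buffering, 16 were tested, with 0 called by edgeR, DESeq2 or limma-voom. At an unadjusted p below 0.05 there were 1, 2 and 2, beside the same shares of all tested genes. FTL, the ferritin light chain that stores the iron set free by heme oxygenase, had 278, 252, 233 and 250 CPM in untreated and 407, 281 and 333 CPM in BV6 samples. Its groups did not overlap, the log2 fold change was 0.43 and the adjusted p was 0.349 (edgeR, Benjamini-Hochberg), or 0.0319 with the GC correction. FTH1, the heavy chain, had a log2 fold change of 0.03 (95% interval -0.17 to 0.24), and STEAP3, MT1X and MT2A had log2 fold changes of -0.24, -0.98 and -0.52. In the leave-one-out fits these lay between -0.39 and -0.14, between -1.37 and -0.59 and between -0.82 and -0.165. MT1X rests on 6 to 38 counts per sample, and the values nearest 0 of all 3 came without BV6 replicate 3. Of 8 factors for the synthesis of selenoproteins, the class to which GPX1, GPX4 and TXNRD1 belong, 7 were tested, and edgeR, DESeq2 and limma-voom called 0, with 0 at an unadjusted p below 0.05 in all 3. Their log2 fold changes lay between -0.17 and 0.22, with SEPSECS at 0.22, EEFSEC at -0.17, SCLY at -0.12 and SEPHS2 at 0.09. Without BV6 replicate 3, SEPSECS was at 0.09 and the signs of EEFSEC (0.020) and SCLY (0.067) turned. Without BV6 replicate 2, SEPSECS was at 0.37 and the sign of SEPHS2 turned (-0.013).

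SOD2 was set beside other NF-κB targets. Of 35 such genes, 28 were tested, with 10 called higher with BV6 (0.394% of all tested genes) and 0 lower. Their median log2 fold change was 0.81. These targets overlap with genes the study shows, so their direction is no independent evidence. BIRC3, which encodes cIAP2, rose from 1.64, 4.74, 1.26 and 2.12 CPM in untreated to 102, 57.1 and 52.3 CPM in BV6 samples (log2 fold change 4.86, 95% interval 3.85 to 5.87, adjusted p = 0.00341; edgeR, Benjamini-Hochberg). NFKBIA, the NF-κB inhibitor, NFKB2, the precursor of p52, and TNFAIP3, the deubiquitinase A20, rose by log2 values of 2.17, 1.67 and 0.86 (adjusted p of 0.0116, 0.011 and 0.0145; edgeR, Benjamini-Hochberg). The others called were CCL5 (4.72), TRAF1 (3.58), MMP9 (2.80), BIRC2 (1.54), IRF1 (1.07) and CYLD (0.96), by log2 fold change. NFKB1, NFKBIE, RELB and CSF1 did not pass here and passed with the replicate block, at blocked log2 fold changes of 0.57, 1.23, 1.07 and 0.88. NFKBIE and CSF1 also passed in unblocked edgeR fits without the filter, with the GC correction and without BV6 replicate 3, and in DESeq2. In the leave-one-out fits, BIRC3, CCL5, TRAF1 and CYLD were called in 7 of 7, and NFKBIA and NFKB2 in 6, lost without untreated replicate 4. BIRC2 was called in 3 and lost without any 1 of the untreated samples. TNFAIP3 was called in 3 and lost without untreated replicate 1, 3 or 4 or BV6 replicate 2. MMP9 was called in 1, the fit without BV6 replicate 3, and IRF1 in 1, the fit without untreated replicate 2. MMP9 also missed with limma-voom (adjusted p = 0.135) and IRF1 with RLE factors in edgeR (adjusted p = 0.0522, both Benjamini-Hochberg). The number of called targets fell to 4 without untreated replicate 4 and to 6 without untreated replicate 1 or 3. Over all 28 targets, 24 estimates were positive and 4 negative, from -1.28 to 4.86, and the SOD2 estimate of 0.17 lay inside this range and below its median.

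**Figure D5:**
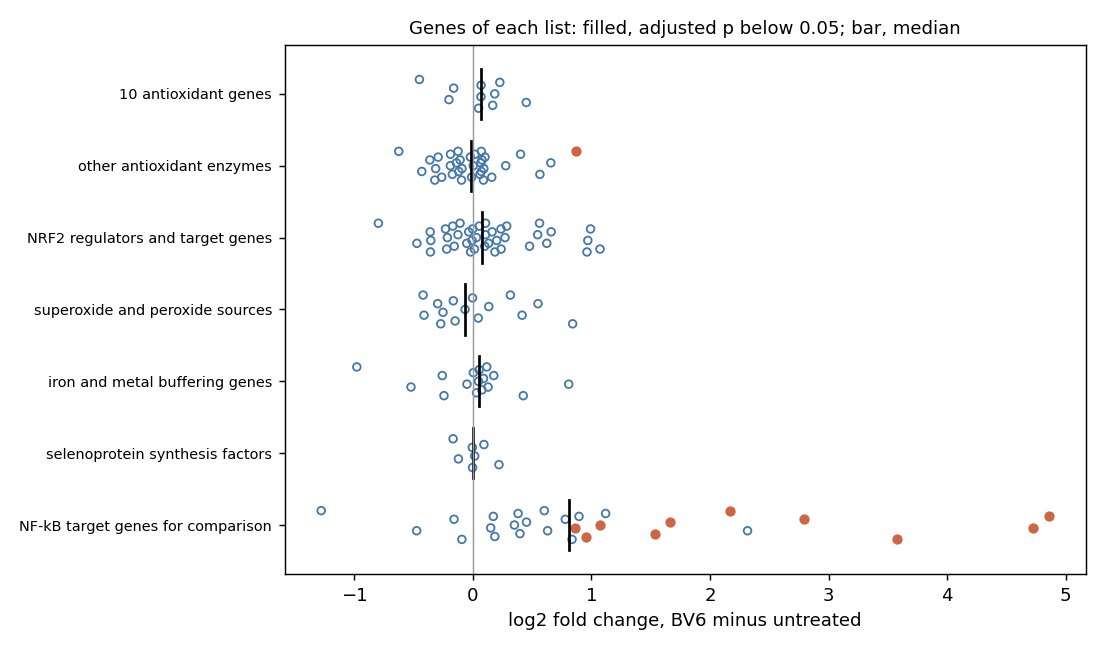
Log2 fold change with BV6 of every tested gene of the 10 antioxidant genes and of 6 gene lists (1 circle per gene). Filled circles have an adjusted p below 0.05 (edgeR, Benjamini-Hochberg) and vertical bars are medians, 0.07 for the antioxidant genes and 0.81 for the NF-κB targets. Outside the NF-κB list the only filled circle is PRDX1.

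Promoter sequence was looked up for the antioxidant genes, and 8 of the 10 had an entry in the RefSeq table (GRCh38.p14), all but SOD1 and HMOX1. The 250 bases before each start were searched on both strands for TGACNNNGC, the core letters of the antioxidant response element bound by NRF2, and for the NF-kB consensus. The first was found in 2 of the 8 genes, GCLM and TXNRD1, and in 13.2% of the 27305 genes of the table. The NF-kB consensus was found in 0 of the 8 and in 11.8% of all genes. GCLM and TXNRD1 are shown because they hold the antioxidant letters, SOD2 because it is the NF-κB target among the 10 genes, and BIRC3 because it is the NF-κB target with the largest rise. The windows are chr1:93909431-93909680 (minus strand) for GCLM, whose last 26 bases are annotated as exon and include the final base of the match, chr12:104215529-104215778 (plus) for TXNRD1, the most upstream of 2 starts, chr6:159693279-159693491 (minus) for SOD2, at the most downstream of its 4 starts and without the annotated exon at its end, and chr11:102317234-102317483 (plus) for BIRC3. The window of the other TXNRD1 start also holds 1 match to TGACNNNGC and is not shown. Capitals mark the matched letters, TGACNNNGC in GCLM (on the opposite strand) and TXNRD1, and the NF-kB consensus, on the opposite strand, in BIRC3.
GCLM: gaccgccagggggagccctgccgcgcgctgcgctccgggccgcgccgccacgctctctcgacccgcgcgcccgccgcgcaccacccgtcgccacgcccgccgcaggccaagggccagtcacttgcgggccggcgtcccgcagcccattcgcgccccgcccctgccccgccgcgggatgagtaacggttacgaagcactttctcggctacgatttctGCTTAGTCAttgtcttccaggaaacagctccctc
TXNRD1: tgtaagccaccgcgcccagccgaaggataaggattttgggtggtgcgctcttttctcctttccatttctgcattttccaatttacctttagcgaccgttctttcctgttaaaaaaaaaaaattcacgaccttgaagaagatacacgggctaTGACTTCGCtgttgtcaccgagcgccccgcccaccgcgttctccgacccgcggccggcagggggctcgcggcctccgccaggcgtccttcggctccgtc
SOD2: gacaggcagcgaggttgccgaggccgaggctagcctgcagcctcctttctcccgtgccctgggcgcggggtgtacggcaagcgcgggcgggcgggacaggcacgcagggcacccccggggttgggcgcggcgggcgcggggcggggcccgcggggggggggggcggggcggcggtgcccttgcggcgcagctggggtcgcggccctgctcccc
BIRC3: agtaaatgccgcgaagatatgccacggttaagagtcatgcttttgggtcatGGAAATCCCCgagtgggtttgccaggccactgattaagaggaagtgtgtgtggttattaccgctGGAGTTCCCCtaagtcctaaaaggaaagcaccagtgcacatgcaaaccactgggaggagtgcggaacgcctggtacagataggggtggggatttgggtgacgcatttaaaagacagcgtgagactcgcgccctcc
A match describes letters and not a bound site, and a window without one says nothing about sites elsewhere. Beside these sequences, GCLM had a log2 fold change of -0.20 and TXNRD1 of 0.23, neither called. BIRC3, with matches to the NF-kB consensus, rose by 4.86 but was picked for its rise. Its matches beside that rise are therefore no independent evidence, and whether these letters go with a change was not tested.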

How the data were processed

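RNA of RH30 cells was measured in 7 samples, 4 untreated and 3 treated with BV6. The authors deposited raw counts per gene, made from stranded poly(A) libraries aligned to GRCh38 with STAR 2.6.1d, per the submitters' processing notes. Whether both mates of a pair were counted is not given in the sources used here. The members and lists were chosen with earlier results of these data known.

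From the deposited counts, edgeR 4.0.16 in R 4.3.3 was used with filterByExpr (minimum count 10), TMM factors and the quasi-likelihood test, with Benjamini-Hochberg adjustment over 23124 genes. Called means an adjusted p below 0.05. Each standard error is the absolute log2 fold change over the square root of F, and intervals are at 95%. On simulated data, DESeq2 and edgeR with the replicate block had larger shares of false calls than edgeR and limma-voom without it, and at the smaller of 2 simulated fold sizes the shares of all 4 were above the threshold. The simulated counts held no replicate effect and no GC trend. They cannot show how the block or the GC correction performs where samples differ in these ways. Coordinates, overlaps, lengths and GC content are from GENCODE release 44, to which 36327 of the 57189 genes were matched by symbol. The GC content is that of the longest transcript of each gene.

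Named were all 10 genes, from each list every gene called with or without the replicate block, then those with the smallest p up to 4, and regulators, ferritins and NF-κB genes set by name.

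Alternatives were DESeq2 1.42.0 (Wald test), RLE factors, no filter, 10 counts in every sample, the replicate block, limma-voom (limma 3.58.1), halved counts and leaving out each sample. The correction for GC content (loess, span 0.5), without and with the block, was chosen after the data had been seen. It was limited to the 17059 tested genes with a mean of at least 1 CPM, of which 80.7% have a GC value, because over all tested genes the share is 75.5%, under the 80 percent set for such a check.

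The pairing rests on the title label, whose meaning is not given in the sources used here. Deviations from the group means of all samples correlated across genes at 0.462, 0.438 and 0.085 in pairs 2, 3 and 4, so that pair 4 missed the limit of 0.1. Centered on the 3 paired samples of each group, they correlated at 0.515, 0.322 and 0.197. The second centering was computed after the first, with the calls of both fits known, so the numbers are not taken as shown to pair the samples, and the fit without the block is the reported one.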

Additional observations from a re-analysis of the deposited data

Results flagged for a closer look

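In the 4 untreated samples, 3 of 56 named genes had 1 sample far from the other 3, where chance gives about 1 in 20. For GCLM, untreated replicate 2 stood at 63.4 CPM and the other 3 between 42.0 and 45.4 CPM (gap of 0.842 of the whole range), and without that sample its log2 fold change was -0.05. TRIM16L was high in the same sample, at 59.3 CPM beside 44.8 to 47.0 CPM (0.848). For TXN2, untreated replicate 4 stood at 63.4 CPM beside 59.9 to 60.3 CPM (0.882), a small difference on its own scale.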

How the results depend on the processing

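The number of the 10 antioxidant genes called was 0 in the fit without the block and in 15 of 16 alternatives, and 1 (GCLM, log2 fold change -0.29) with the GC correction and the replicate block. SOD2 kept its sign in all 16, between 0.10 and 0.20. The number of genes called was 104 and moved to 408 with DESeq2 (406 of them among the 23124 genes), 242 without a filter, 218 with the replicate block, 175 of 13767 with the GC correction, 1027 with the GC correction and the block, and 38 to 89 when a sample was left out. The cause was not tested. The replicate block changed the calls of SQSTM1, SLC7A11, TRIM16L, NFKB1, NFKBIE, RELB and CSF1, and of no other named gene.

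Signs turned for the genes that follow. GPX1 was -0.087 with limma-voom and -0.23 to 0.44 with a sample left out, TXN -0.039 and -0.026 with the GC correction without and with the block and -0.011 to 0.11 with a sample left out, and NQO1 -0.19 to 0.26 and HMOX1 -0.56 to 0.82 with a sample left out. KEAP1 was 0.0078 with the GC correction and -0.515 to 0.0037 with a sample left out. EEFSEC was 0.060 and 0.035 (GC correction without and with the block) and -0.28 to 0.020, SCLY 0.034 (with the block) and -0.29 to 0.067, FTH1 -0.015 to 0.070, SEPHS2 -0.013 to 0.19 and SOD2-OT1 -0.065 to 0.16. WTAP was -0.0054 with DESeq2, -0.0026 with RLE factors, -0.030 with the replicate block, -0.041 and -0.053 with the GC correction without and with the block, and -0.037 to 0.078 with a sample left out.

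Called genes of the NRF2 list numbered 4 with DESeq2, 1 without a filter, 3 with the block, 2 with the GC correction and 4 with both. Its median of 0.08 became 0.024 with 10 counts in every sample, 0.024 with halved counts, 0.0078 and 0.023 with the GC correction without and with the block, and 0.012 to 0.13 with a sample left out. Other antioxidant enzymes had 4 called with the GC correction and block and 0 to 1 with a sample left out. Metal genes had 1 called with the GC correction, without and with the block. The selenoprotein list had a median of 0.034 with the GC correction and block and -0.074 to 0.047 with a sample left out. NF-κB targets had 17 called with the GC correction and block and 4 to 11 with a sample left out, and medians of 0.62 with DESeq2, 0.62 without a filter and 1.00 and 0.996 with the GC correction without and with the block. The cause was not tested.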
